A study of Mus musculus with 14 samples.

Results

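The genes of the transforming growth factor beta (TGF-beta) signal were followed in the mammary epithelium of mice that overexpress Usp22, an enzyme that removes ubiquitin from histones and other proteins. The set held the 3 ligand genes Tgfb1, Tgfb2 and Tgfb3, the 3 receptor genes Tgfbr1, Tgfbr2 and Tgfbr3, and Smad2, Smad3, Smad4 and Smad7 from the SMAD family. These 10 genes were chosen by name, and all 10 were present among the 16124 genes measured. The question was whether raised Usp22 came with changed transcript levels of the signal's own components.

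Polyadenylated RNA was sequenced from 7 wild type (WT) and 7 Usp22 OE/OE nulliparous females aged 3.5 months, with 1 library per mouse and 1 mouse of each genotype in each of 7 littermate pairs (numbered 1, 3, 4, 5, 6, 7 and 8). OE/OE mice carried on both ROSA26 alleles a mouse Usp22 cDNA with a FLAG-MYC tag, driven by the CAGGS promoter after a Zp3-Cre driver had removed a loxP-flanked STOP cassette, so the overexpression was ubiquitous and not restricted to the epithelium. Cells came from the number 2, 3 and 4 glands of both sides as the organoid fraction left by brief spins after collagenase digestion, dispersed to single cells without sorting. Between 20125106 and 41835978 fragments were counted per library, and Usp22 lay at 3500 to 5380 normalized counts in WT and at 74948 to 144288 in OE/OE, so every library matched its genotype. The 10 pan-epithelial markers (keratin, claudin and adhesion genes, with Esrp1 and Grhl2) were present in every library, but so were markers of fibroblasts, fat, vessels and immune cells. In such bulk samples fewer cells of a type and less RNA per cell cannot be told apart.

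TGF-beta ligands are secreted in latent complexes and, once released, bind the type II receptor Tgfbr2, which activates the type I receptor Tgfbr1; Tgfbr3, or betaglycan, is a co-receptor that presents ligand. The active receptor phosphorylates Smad2 and Smad3, which enter the nucleus with Smad4, while Smad7 is an inhibitory SMAD that blocks the receptor and is itself induced by the signal. In the mammary gland this pathway is known for restraining epithelial growth and side branching, and the signal runs largely through protein modification, so transcript levels describe its components and not its activity.

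For none of the 10 genes was the difference between genotypes larger than the spread between littermate pairs. Normalized counts, the deposited unit (fragments divided by each library's size factor), were compared on the log2(normalized count + 1) scale by limma with the littermate pair as a block. At an unadjusted p of 0.05 or less, 0 of 10 genes passed, against 614 of all 16124 genes (3.81%), of which 315 (1.95%) were higher and 299 (1.85%) lower in OE/OE. The count was also 0 of 10 with edgeR, with DESeq2 and with a paired test of each gene. For each of the 10 genes the limma p adjusted over all genes was 0.9997. Of all genes, 2 (0.0124%) had an adjusted limma p under 0.05. The estimated fold was above 1 for 6 genes and below 1 for 4 (above 1 for 7 after median centring, where Tgfb1 changed sign, and for 4 after quantile normalization, where Tgfbr1 and Tgfbr3 did), with a median log2 change of 0.05 against -0.0015 over all genes, and a median absolute log2 change of 0.06 against 0.09. The widest 95% intervals of the fold ran down to 0.790 and up to 1.41, so for each of the 10 genes a change of 1.5-fold or more in either direction lay outside its interval. Leaving out pair 4 brought Tgfb3 (log2 change 0.29) and Smad7 (0.28) past the unadjusted threshold, and leaving out pair 1 did so for Tgfb3 (0.29). The count over all genes also rose, from 614 to 1366 without pair 4 and to 1196 without pair 1.

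**Figure D1:**
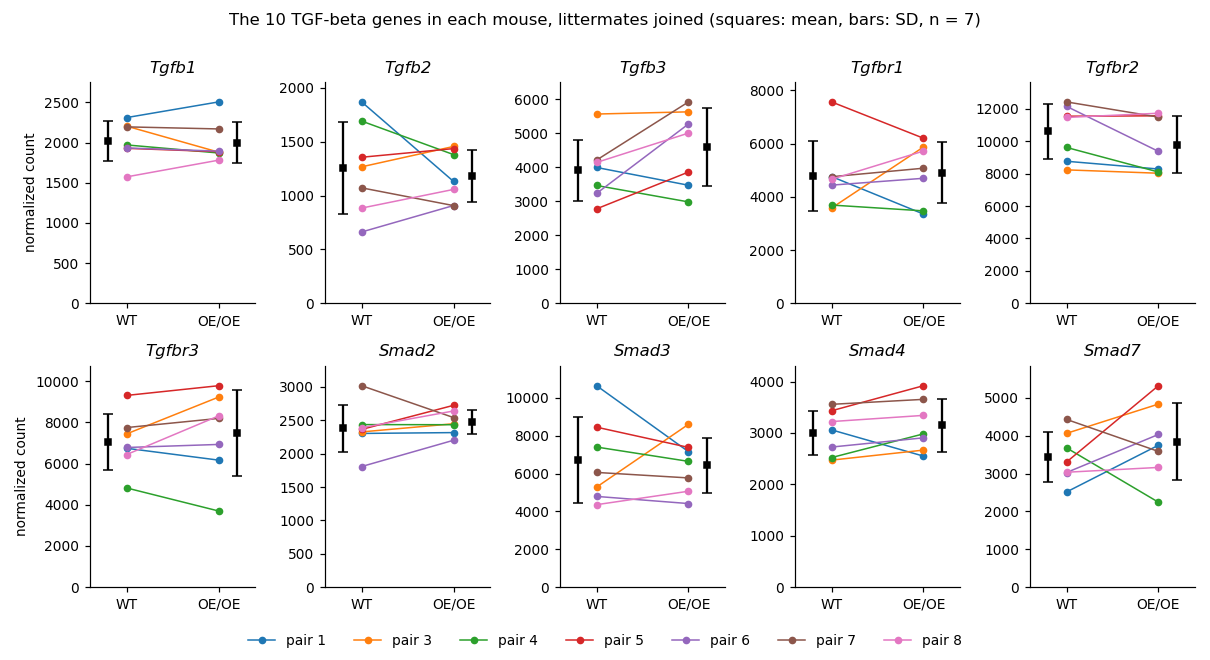
Normalized counts of each gene (vertical axes from 0) in the WT and OE/OE mouse of each of the 7 littermate pairs, joined by a line and coloured by pair, with black squares for means and bars for SD (n = 7). The WT and OE/OE values overlap in all 10 panels.

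The 3 ligand genes were Tgfb1 (chromosome 7, 25687002 to 25705077, plus strand, GRCm38), Tgfb2 (chromosome 1, 186622792 to 186705989, minus strand) and Tgfb3 (chromosome 12, 86056745 to 86079041, minus strand), which encode separate isoforms that act on the same receptors. Tgfb1 had 1574, 1971 and 2312 normalized counts in the lowest, median and highest WT mouse and 1782, 1888 and 2507 in OE/OE. The genotypes overlapped, and pair 8 held the lowest and pair 1 the highest mouse of both. Its fold was 0.991 (95% interval 0.893 to 1.101), with 2 of 7 pairs higher (two-sided exact sign-flip p = 0.812). Tgfb2 ranged from 662 through a median of 1267 to 1869 in WT and from 907 through 1131 to 1456 in OE/OE. All 7 OE/OE mice lay inside the WT range, whose ends were pair 6 and pair 1. Its fold was 0.974 (0.790 to 1.20), with 4 of 7 pairs higher and pair log2 ratios from -0.72 in pair 1 to 0.45 in pair 6 (exact p = 0.828).

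Tgfb3 had the largest estimated log2 change of the 10 genes in the comparison as made here, which did not exceed the spread between pairs. With the fibroblast marker level as a covariate it was 0.13, below the size of Tgfb2 (-0.17) and Smad7 (0.17), and Smad7 also exceeded it with the adipocyte covariate (0.24 against 0.22) and without pair 7 (0.21 against 0.18). It measured 2776, 3990 and 5559 normalized counts (lowest, median, highest) in WT and 2979, 5000 and 5915 in OE/OE. The fold was 1.16 (95% interval 0.964 to 1.41), from a log2 change of 0.22 with a standard error of 0.12 (n = 7 pairs, exact p = 0.141). The log2 ratios were 0.47, 0.71, 0.49 and 0.27 in pairs 5, 6, 7 and 8, 0.02 in pair 3, and -0.20 and -0.22 in pairs 1 and 4. Of the exon bases of Tgfb3, 257 overlap the antisense genes Ttll5 and Gm48008, and since strand use in the counting is not stated in the sources used here, reads of these bases could not be assigned with certainty.

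Promoters are shown for Tgfb1 and Tgfb2, the ligand genes that varied least and most between WT mice (coefficient of variation 12.3% and 34.1%), and for Smad3, the gene of the set whose level followed that of Tgfb2 most closely over the 14 libraries. Between OE/OE mice Tgfb3 varied most (24.9%, against 20.4% for Tgfb2 and 12.7% for Tgfb1). Each line gives the 250 bases before the RefSeq start (GRCm38.p6, gene strand, 5′ to 3′), with capitals for the TATA box TATAAA on the gene strand and for the GC box GGGCGG on either strand. The windows are chr7:25686752-25687001 (plus strand) for Tgfb1, chr1:186705990-186706239 (minus strand) for Tgfb2 and chr9:63757995-63758244 (minus strand) for Smad3.
Tgfb1: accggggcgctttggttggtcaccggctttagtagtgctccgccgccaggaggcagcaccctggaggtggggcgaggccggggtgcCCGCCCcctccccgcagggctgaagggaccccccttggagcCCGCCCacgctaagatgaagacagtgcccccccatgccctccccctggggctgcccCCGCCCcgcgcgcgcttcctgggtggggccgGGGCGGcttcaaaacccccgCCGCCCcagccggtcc
Tgfb2: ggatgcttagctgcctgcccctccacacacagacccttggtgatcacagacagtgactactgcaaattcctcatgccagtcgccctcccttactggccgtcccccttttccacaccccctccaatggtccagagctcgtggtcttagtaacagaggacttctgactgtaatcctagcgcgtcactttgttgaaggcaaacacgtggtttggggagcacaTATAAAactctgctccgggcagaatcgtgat
Smad3: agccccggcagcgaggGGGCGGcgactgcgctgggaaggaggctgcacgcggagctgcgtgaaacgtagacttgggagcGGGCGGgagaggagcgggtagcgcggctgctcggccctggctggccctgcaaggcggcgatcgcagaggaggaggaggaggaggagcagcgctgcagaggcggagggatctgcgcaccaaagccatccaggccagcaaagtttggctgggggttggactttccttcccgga

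The Tgfb1 window is 75.2% G and C and holds 5 GC boxes and no TATA box. The Tgfb2 window is 53.6% G and C, with 1 TATA box beginning 31 bases before the start and no GC box, and the Smad3 window is 69.2% G and C with 2 GC boxes. Over all 32817 windows of this length in the RefSeq promoter table, 7.60% held the TATA box and 32.7% the GC box. The SMAD box CAGAC, searched on both strands, occurred 2 times in the Tgfb2 window and in neither of the other two, against 42.2% of all windows with at least 1. None of these windows held the cyclic AMP response element TGACGTCA (1.55% of all windows), and the CAAT box CCAAT occurred 1 time, in the Tgfb2 window (33.8% of all). Of the 10 genes, 5 matched the promoter table, the other two being Tgfbr1 (74.8% G and C, 2 GC boxes) and Tgfbr2 (58.4%, no GC box). These matches describe letters and do not show that a factor binds there.

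Among the ligand genes, Tgfb3 took the largest part of the transcripts per length. Normalized counts were divided by the kilobases of exon of each gene, and the 3 values were expressed as shares of their sum in each mouse. In WT the Tgfb3 share was 64.8% ± 5.94, the Tgfb1 share 22.9% ± 3.19 and the Tgfb2 share 12.3% ± 4.08 (SD, n = 7 mice). OE/OE mice had 68.4% ± 7.06, 20.8% ± 4.61 and 10.8% ± 3.38. The Tgfb3 share differed by 3.62 percentage points and was higher in 5 of 7 pairs (exact p = 0.0938), while those of Tgfb1 and Tgfb2 differed by -2.12 and -1.50 points and were each higher in 2 pairs (exact p = 0.266 and 0.141). After adjustment over the 3 shares the p-values were 0.211, 0.266 and 0.211. Tgfb3 led in all 14 mice. The share of Tgfb1 depended on the length used. With the longest protein-coding transcript of each gene (2175 bases for Tgfb1 against 5042 of merged exon) the WT shares were 49.3% for Tgfb3, 40.1% for Tgfb1 and 10.5% for Tgfb2, and Tgfb3 led in 12 of 14 mice.

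The receptors showed no called change either. Tgfbr2 (chromosome 9, 116084293 to 116175360, minus strand), the type II receptor that binds ligand first, had 8230, 11463 and 12420 normalized counts (lowest, median, highest) in WT and 8023, 9371 and 11721 in OE/OE. It had the smallest exact p of the 10 genes. It was lower in 5 of 7 pairs, by up to 0.37 on the log2 scale in pair 6, and in the other 2 pairs, 5 and 8, the log2 ratio was 0.0032 and 0.03, which gave a fold of 0.922 (95% interval 0.822 to 1.03, two-sided exact sign-flip p = 0.0625). The groups overlapped, and pair 3 held the lowest Tgfbr2 mouse of both genotypes.

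Tgfbr1 (chromosome 4, 47353222 to 47414931, plus strand), the type I receptor kinase, had 3582, 4662 and 7570 normalized counts in WT and 3356, 5078 and 6206 in OE/OE. The WT mouse of pair 5 stood above the other 6 WT mice, of which the next had 4765, and its OE/OE littermate was the highest of its own genotype. The fold of Tgfbr1 was 1.03 (0.840 to 1.26), with 4 of 7 pairs higher and log2 ratios from -0.51 in pair 1 to 0.71 in pair 3 (exact p = 0.750). Tgfbr3 (chromosome 5, 107106570 to 107289629, minus strand), the co-receptor, had 4815, 6780 and 9308 in WT and 3697, 8192 and 9779 in OE/OE. Pair 4 was lowest and pair 5 highest in both genotypes. For Tgfbr3 the fold was 1.04 (0.893 to 1.20), with 5 of 7 pairs higher (exact p = 0.625).

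Of the SMADs that the receptor activates, Smad2 (chromosome 18, 76241580 to 76310963, plus strand) varied little and Smad3 (chromosome 9, 63646767 to 63757994, minus strand) varied widely between mice. Smad2 had 1808, 2364 and 3019 normalized counts (lowest, median, highest) in WT and 2201, 2449 and 2725 in OE/OE. All OE/OE mice fell within the WT range, and the fold was 1.05 (95% interval 0.932 to 1.176), with 5 of 7 pairs higher (exact p = 0.344). Smad3 had 4355, 6058 and 10636 in WT and 4414, 6642 and 8599 in OE/OE. The highest Smad3 mouse was the WT of pair 1, and all OE/OE mice again fell inside the WT range. Its fold was 0.981 (0.799 to 1.20), with 2 of 7 pairs higher (exact p = 0.828). The pair ratios of Smad3 ran from -0.57 in pair 1 to 0.70 in pair 3, the same 2 pairs that gave the lowest and highest ratio of Tgfbr1.

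Smad4 (chromosome 18, 73639009 to 73703780, minus strand), the common partner, had 2471, 3060 and 3557 normalized counts in WT and 2549, 2982 and 3919 in OE/OE. It was higher in 6 of 7 pairs, but by 0.24 at most on the log2 scale, and lower by 0.26 in pair 1, so the fold was 1.05 (0.935 to 1.17, exact p = 0.312). Smad7 (chromosome 18, 75367529 to 75395935, plus strand), the inhibitory SMAD, had 2515, 3306 and 4433 in WT and 2245, 3750 and 5323 in OE/OE. The lowest Smad7 mouse was the OE/OE of pair 4 and the highest that of pair 5. It had the widest interval of the 10 genes on the log2 scale, with a fold of 1.101 (0.858 to 1.41), 5 of 7 pairs higher, and pair log2 ratios from -0.71 in pair 4 to 0.69 in pair 5 (exact p = 0.484).

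**Figure D2:**
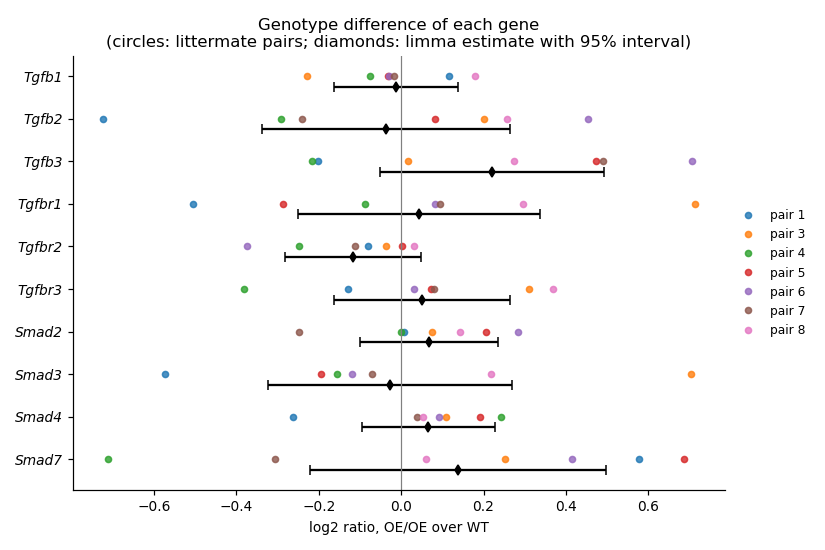
Log2 ratio of OE/OE over WT (horizontal axis) for each gene, with 1 circle per littermate pair and a black diamond with a bar for the limma estimate and its 95% interval. All 10 bars cross 0, and Tgfb3 has the estimate farthest from it, at 0.22.

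No gene of the set had the same direction in all 7 pairs, against 243 (1.51%) of all genes. Within a pair, however, the genes often shared a sign. The share of all genes higher within each pair was not computed, so whether this is particular to the set was not tested. In pair 8 all 10 were higher in the OE/OE mouse, with a median log2 ratio of 0.20, and in pair 3 it was 8 of 10, with a median of 0.15. In pair 4 only Smad4 was higher and the median was -0.19, and in pair 1 it was 3 of 10, with a median of -0.17. Pairs 5, 6 and 7 had 7, 7 and 4 of 10 higher, with medians of 0.08, 0.09 and -0.04. In pairs 1 and 8 the WT library held the fewest fragments, 20125106 and 22632805, and the part of depth in these pair ratios was not tested.

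Per length, the 10 genes all lay in the upper part of the genes measured, and their order held only at a few steps. In WT the mean level, in normalized counts per kilobase of exon (± SD, n = 7 mice), was 1294 ± 207 for Tgfbr2, 1211 ± 407 for Smad3, 1155 ± 265 for Tgfb3 and 1076 ± 209 for Tgfbr3. Smad4 followed at 808 ± 117, Smad7 at 760 ± 147 and Tgfbr1 at 732 ± 203. The lowest were Tgfb1 at 400.1 ± 49.1, Smad2 at 271 ± 40.2 and Tgfb2 at 217 ± 73.9. Tgfbr2 exceeded 92.5% of all genes on this scale and Tgfb2 61.7%. Of the 9 steps between neighbours in this order, 3 were the same in each of the 7 WT mice, namely Tgfbr3 above Smad4 (ratio 1.32), Tgfbr1 above Tgfb1 (1.79) and Tgfb1 above Smad2 (1.48), each with an exact sign-flip p of 0.0156, the smallest that 7 mice allow, and 0.0469 after adjustment over the 9 steps. The other 6 steps did not exceed the spread between mice (adjusted p from 0.281 to 0.906). With the longest protein-coding transcript as length, Tgfb1 moved from the eighth to the fifth place, its level became 928 per kilobase and the step from Tgfbr1 to Tgfb1 was lost (ratio 0.877, higher in 2 of 7 mice, exact p = 0.297). In OE/OE the order began with Tgfb3 at 1356 ± 338, then Tgfbr2 at 1196 ± 213 and Smad3 at 1160 ± 261, and Smad7 and Smad4 changed places. These shifts of order were not tested beyond the genotype comparison of each gene.

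**Figure D3:**
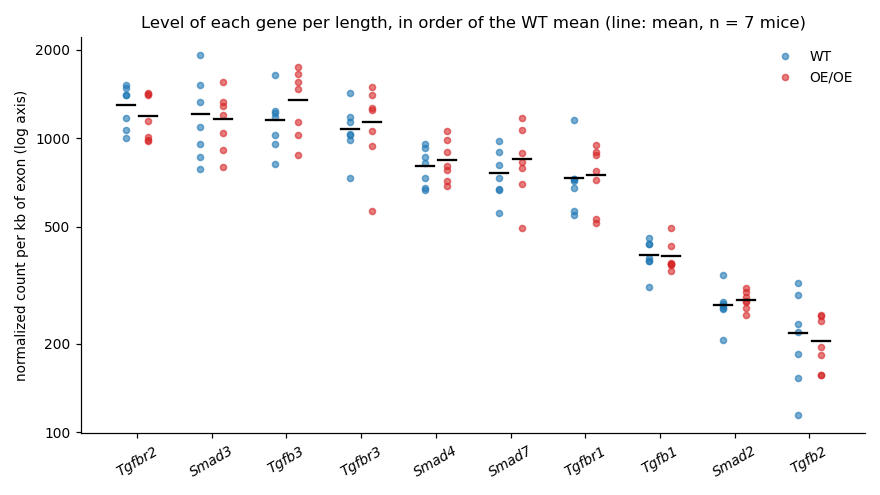
Normalized counts per kilobase of exon (log axis) of the 10 genes in order of the WT mean, with 1 point per mouse (blue WT, red OE/OE) and a black line at each mean. The genes run from 1294 for Tgfbr2 to 217 for Tgfb2 in WT, with both genotypes overlapping at every gene.

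Most of the variation of these genes lay between littermate pairs. The sum of squares of the log2 values over the 14 libraries was divided among pair, genotype and remainder, as a description with no test. For 9 of the genes the pair took between 66.2% (Tgfb3) and 89.3% (Tgfbr3), against a median of 73.9% over all genes. Smad7, the feedback inhibitor, was the exception with 47.0%, and 48.7% of its variation was left between littermates after genotype. A large part of the sum of squares falls to the pair even where littermates are no more alike than other mice. The correlation of WT and OE/OE littermates over the pairs was -0.02 for Smad7. For the other genes it ran from 0.38 (Tgfbr1) to 0.90 (Tgfbr3). Genotype took 10.2% for Tgfb3, 6.05% for Tgfbr2 and at most 4.33% for the other genes, against a median of 1.43% over all genes. The remainder was smallest for Tgfbr2, at 8.10%, and the SD over the 14 libraries on the log2 scale ran from 0.17 for Smad2 and Tgfb1 to 0.41 for Tgfb2.

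**Figure D4:**
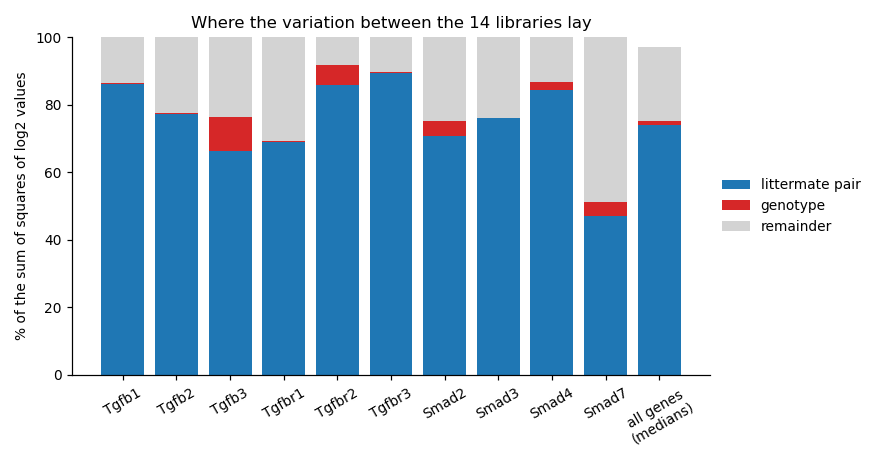
Percent of the sum of squares of log2 values over the 14 libraries (bars from 0 to 100%) held by littermate pair, genotype and remainder for each gene, with the medians over all genes at the right, which need not add to 100. The pair takes over 66% for every gene but Smad7, where it takes 47.0%.

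The genes did not vary as 1 block. Over the 14 libraries, which share littermates and genotypes, the closest within the set were Tgfb2 and Smad3 (Pearson r 0.84, Spearman rho 0.89), Tgfbr1 and Tgfbr3 (0.79 and 0.87) and Tgfbr2 and Smad4 (0.70 and 0.62). Tgfb2 and Tgfbr2 were the farthest apart (-0.51 and -0.47). Between the log2 ratios of the 7 pairs, which leave out what littermates share, r was 0.62, 0.67 and -0.18 for the first 3 combinations and highest for Tgfbr1 and Smad3, at 0.97 against 0.21 over the libraries. All of these are descriptions of log2 values and carry no test. Among 13230 genes with a mean of at least 50 normalized counts, the gene most like each was, by Pearson r, Rtf1 for Smad4 (0.98), Smarca2, a chromatin remodelling ATPase, for Tgfbr3 (0.97) and Nfkb2, an NF-kappa-B subunit, for Smad3 (0.95). Zfp664 and Slc37a2, a sugar phosphate transporter, were closest to Tgfbr2 and Tgfbr1 (0.94 each), the adaptor gene Shb to Tgfb2 (0.90), the endoplasmic reticulum chaperone gene Hyou1 to Smad2 (0.90) and Erf, an ETS repressor, to Smad7 (0.89). The likeness was lowest for Tgfb1, with A130051J06Rik (0.84), and Tgfb3, with Pkia, an inhibitor of protein kinase A (0.79). Each is the highest value of many and carries no test.

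Beyond these components, 58 further genes of the pathway were listed by role, and all 58 were measured. At an unadjusted p of 0.05 or less, 3 were higher, 1 was lower and 54 did not pass, or 6.90% against 3.81% of all genes, and every adjusted p was 1.00. The median log2 change was 0.04 against -0.0015 over all genes, and the fold was above 1 for 38 of the 58 (65.5%) against 49.6% of all genes. By role these were 15 of 19 adaptors, brakes and ubiquitin enzymes and 9 of 16 immediate target genes. The others were 5 of 12 genes of latent complexes and activators, 5 of 7 other receptors and co-receptors and 4 of 4 other SMADs. Under quantile normalization the fold was above 1 for 31 of the 58 (53.4% against 50.5%). The count past the threshold depended on single pairs, with 7 genes past the threshold without pair 1, 5 without pair 4, 2 without pair 3, 5 or 7, 1 without pair 8 and 0 without pair 6. The count over all genes moved too, from 614 to 1196 without pair 1 and 1366 without pair 4. It was 477 to 498 without pair 3, 5, 7 or 8 and 381 without pair 6. The pathway count was also 0 without the pairing, which leaves the folds as they are (182 of all genes passed). With the fibroblast marker level as a covariate it was 0 as well (307 of all genes passed). There the log2 changes of Itgb8 and Acvr2a were 0.30 and 0.18 against 0.29 and 0.19 without the covariate. Those of Trim33 and Fbn1 were 0.11 and -0.09 against 0.17 and -0.30.

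Of the 12 genes of latent complexes and activators, 1 was higher and 1 lower. Itgb8, the beta subunit of an integrin that releases active TGF-beta, had 966, 1290 and 1687 normalized counts (lowest, median, highest) in WT and 851, 1718 and 2150 in OE/OE. Its log2 change was 0.29 with a standard error of 0.10, with 6 of 7 pairs higher and the groups overlapping (limma p = 0.017, exact sign-flip p = 0.0469). Fbn1, the fibrillin that anchors latent complexes in the matrix, had 3249, 5965 and 11643 in WT and 2335, 5309 and 9285 in OE/OE. Its log2 change was -0.30 with a standard error of 0.12, with 5 of 7 pairs lower (limma p = 0.038, exact p = 0.109). The call of Fbn1 was also lost in the paired test of each gene, after median centring, without the trend, with the adipocyte covariate and without any 1 of pairs 3 to 7, and that of Itgb8 without pair 6 or 8. Thbs1, the thrombospondin that can activate latent TGF-beta and the gene of this group with the highest count, was at 109916 normalized counts in the median WT mouse and 99841 in the median OE/OE mouse (log2 change -0.07, standard error 0.16).

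Of the 7 other receptors and co-receptors, 1 was higher. Acvr2a, a type II receptor for activins, had 678, 936 and 1030 normalized counts in WT and 760, 1009 and 1242 in OE/OE. It was higher in all 7 pairs, by 0.07 to 0.46 on the log2 scale, with overlapping groups. Of all genes, 243 (1.51%) had the same direction in all 7 pairs. The log2 change of Acvr2a was 0.19 with a standard error of 0.07 (limma p = 0.024, exact p = 0.0156). For each named gene past the threshold, the exact p rests on the same pair ratios as the limma p and is not separate support. The call of Acvr2a was lost without pair 6 or 8. Eng, or endoglin, a co-receptor typical of endothelium and the gene of this group with the highest count, had a log2 change of -0.10 (standard error 0.21), while single pairs spanned -1.37 to 0.87. Of the 4 other SMADs none passed, and Smad5, the most abundant by count, had a log2 change of 0.0094 with a standard error of 0.08.

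Of the 19 adaptors, brakes and ubiquitin enzymes, 1 was higher and 18 did not pass, with a median log2 change of 0.08. Trim33, a ubiquitin ligase that acts on Smad4, had 1401, 1826 and 2318 normalized counts in WT and 1665, 2010 and 2826 in OE/OE. The groups overlapped, 6 of 7 pairs were higher, and the log2 change was 0.17 with a standard error of 0.07 (limma p = 0.043, exact p = 0.0625). The call of Trim33 was lost without any 1 pair other than pair 1, after quantile normalization, without the trend and with the adipocyte covariate. Smurf1 and Ppm1a did not pass in limma (p = 0.096 and 0.28) but had exact sign-flip p-values of 0.0469 and 0.031. Pmepa1, a brake that the signal itself induces and the highest by count here, had a log2 change of 0.08 with a standard error of 0.14. None of the 16 immediate target genes passed the threshold, 9 had a fold above 1 and their median log2 change was 0.02. Junb, the target with the highest count, was at 37242 in the median WT mouse and 33451 in the median OE/OE mouse, with a log2 change of 0.04 and a standard error of 0.17.

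**Figure D5:**
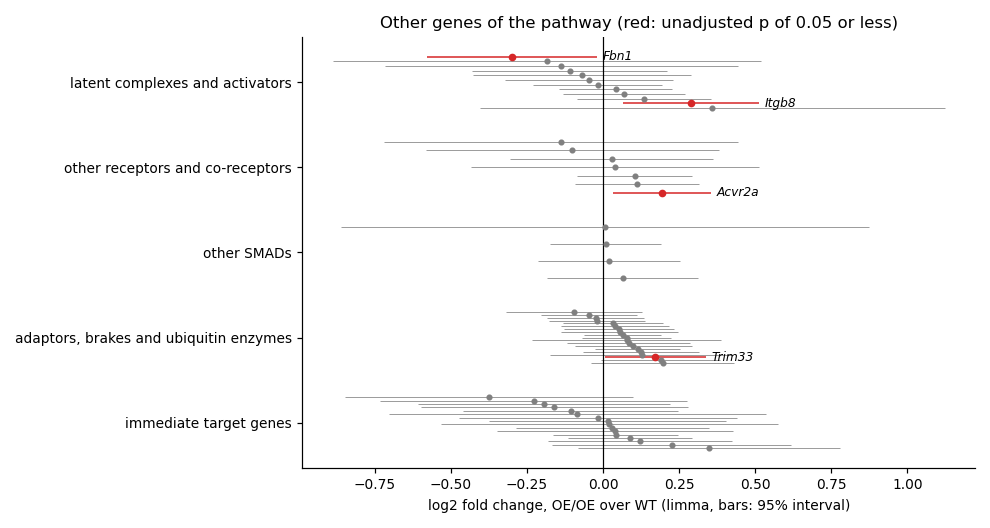
Log2 fold change of OE/OE over WT (limma, bars for the 95% interval) of the 58 further pathway genes in 5 groups by role, with red and a name where the unadjusted p was 0.05 or less. Itgb8, Acvr2a and Trim33 lie to the right of 0 and Fbn1 to the left, and every other bar crosses 0.

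Markers of other cell types were measured in the same libraries. The summed pan-epithelial markers lay between 302645 and 512422 normalized counts in WT and between 325559 and 604880 in OE/OE, a mean log2 ratio of 0.08 (exact p = 0.422). The 10 fibroblast markers summed to between 91004 and 182931 in WT and between 59827 and 134657 in OE/OE, and their mean log2 ratio was -0.41, with 5 of 7 pairs lower (exact p = 0.125). All 10 fibroblast markers had a fold below 1, as did all 10 endothelial, all 9 macrophage and 8 of 10 basal markers. A fold below 1 was also found for 6 of 7 pericyte, 6 of 9 lymphocyte and 1 of 10 pan-epithelial markers. It was found for 4 of 8 markers in both luminal lists. Of all genes, 49.6% had a fold above 1. At an unadjusted p of 0.05 or less, 3 fibroblast markers and 1 secretory luminal marker were lower, against 1.85% of all genes. In the pan-epithelial list 1 marker was higher, against 1.95% of all genes. None of the endothelial, macrophage, basal, hormone-sensing luminal, pericyte or lymphocyte markers passed. The 10 adipocyte markers had a mean log2 ratio of -0.34 (exact p = 0.453), with 9 of 10 below 1 and 5 called lower, but the mean was -0.04 without pair 4. Basal markers stood at -0.08 (p = 0.625), hormone-sensing luminal at -0.14 (p = 0.484, and -0.012 without pair 4) and secretory luminal at -0.14 (p = 0.391) in the same exact test. Endothelial markers stood at -0.11 (exact p = 0.812), between 51239 and 77443 in WT and between 18080, in pair 4, and 110284 in OE/OE. The endothelial sum was higher in 4 of 7 pairs, and its mean log2 ratio was 0.17 without pair 4. Pericyte (0.0047), macrophage (-0.13) and lymphocyte (-0.21) markers had exact p-values of 0.984, 0.344 and 0.641. No marker list passed adjustment over the 10 lists (smallest adjusted p 0.801), and no marker in the table was at 0 in any library. Of the secretory luminal markers, Csn2 and Wap were not in the table.

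The pair ratios of the 10 genes were set against those of the fibroblast, basal, endothelial and pan-epithelial markers, in 40 relations over 7 pairs. None passed Benjamini-Hochberg adjustment (smallest adjusted permutation p 0.362). The 3 with the smallest permutation p of Pearson r were Tgfb1 with the fibroblast markers (Pearson r 0.82, exact permutation p = 0.0198, rho 0.86, p = 0.0238), Smad4 with the fibroblast markers (r -0.81, exact permutation p = 0.00992, rho -0.86, p = 0.0238) and Smad7 with the endothelial markers (r 0.80, exact permutation p = 0.0272, rho 0.71, p = 0.0881). Without the 2 pairs farthest from the median marker ratio, which leaves 5 pairs over a narrower range, r was 0.32, -0.54 and 0.18. Smad4 with the basal markers had an r of similar size (0.81, exact permutation p = 0.0942, 0.61 without those 2 pairs), and Smad7 with the pan-epithelial markers had a higher rho (0.82, exact permutation p = 0.0341) beside an r of 0.56 (0.87 without those 2 pairs). With the fibroblast, basal, endothelial or adipocyte marker level as a covariate, 0 of the 10 genes passed the unadjusted threshold, as without it.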

How the data were processed

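RNA-seq libraries (TruSeq mRNA, polyadenylated RNA) came from 14 mice in 7 littermate pairs, with groups and pair numbers taken from the labels. Paired reads were aligned by the authors to mm10 (TopHat2 2.0.10), who then counted fragments on GENCODE genes (HTSeq 0.6.0) and divided them by size factors from DESeq 1.18.0, and the deposited values are this signal, normalized counts on a linear scale. In every library 100% of values were whole multiples of 1 fragment (tolerance 0.001), so fragments were recovered. No 2 libraries agreed within counting noise (smallest chi-square per gene 30.3). All 16124 identifiers matched GENCODE M21.

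Genotypes were compared with limma 3.58.1 (R 4.3.3, moderated test with a mean trend) on log2(normalized count + 1), which understates changes of genes with few counts, with the pair as a block, an unadjusted threshold of 0.05 as in the study's methods and Benjamini-Hochberg adjustment over all genes. It replaced the study's paired test of each gene, which was kept as an alternative beside DESeq2 1.42.0 and the quasi-likelihood test of edgeR 4.0.16, both on recovered fragments. Single genes, shares and marker lists were tested by exact two-sided sign flips of the 7 pairs (128 patterns, smallest p 0.0156), and scripts were tested on simulated data. The pairing rests on the pair numbers in the labels, read here as the littermate pairs that the study's methods describe. Across genes, deviations from the genotype mean correlated within each same-numbered pair (lowest 0.171, median of the 7 pairs 0.522). For the 42 combinations of different pair numbers the median correlation was -0.151.

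The 10 genes and all lists were chosen with earlier results of these data known. Named pathway genes were those past the unadjusted threshold and the one with the highest count in each group by role, and for each of the 10 genes the most similar gene over the 14 libraries was named. Alternatives were the pseudocount (0.1 and 10), a minimum mean of 50, no trend, no block, other tests, 2 scalings, 4 marker covariates and each pair left out. The protein-coding transcript length was added after the data were seen. Promoter sequences are from RefSeq (GRCm38.p6).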

Additional observations from a re-analysis of the deposited data

Results flagged for a closer look

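Among 46 groups of 7 mice (10 genes, 3 ligand shares and 10 marker lists in both genotypes), 4 held a mouse whose gap to the nearest other mouse was over Dixon's 95% critical value for 7 samples, where chance gives about 2.3. Tgfbr1 was at 7570 normalized counts in the WT mouse of pair 5, and the next WT mouse had 4765. The secretory luminal markers summed to 45024 in the WT mouse of pair 3, with the nearest WT mouse at 69456. The lymphocyte markers summed to 1878 in the WT mouse of pair 1, with the nearest at 437. The macrophage markers summed to 9011 in the OE/OE mouse of pair 3, with the nearest at 5779.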

How the results depend on the processing

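Of 210 refits of the 10 genes (21 alternatives each), 195 kept the direction of the log2 change and 15 did not, and in those 15 the value was at most 0.077 from 0 (smallest limma p 0.439). The values with the other sign were 0.0067 (median centring) and 0.063 (fibroblast covariate) for Tgfb1, 0.045 for Tgfb2 and 0.052 for Smad3 (basal covariate), -0.011 (quantile normalization) and -0.035 (fibroblast covariate) for Tgfbr1, -0.0082 (quantile normalization) for Tgfbr3 and -0.026 (fibroblast covariate) for Smad4. With 1 pair left out the log2 change ran from -0.044 to 0.024 for Tgfb1, -0.12 to 0.077 for Tgfb2, 0.14 to 0.29 for Tgfb3, -0.068 to 0.13 for Tgfbr1, -0.0028 to 0.12 for Tgfbr3, -0.15 to 0.063 for Smad3, 0.047 to 0.28 for Smad7, -0.14 to -0.074 for Tgfbr2, 0.030 to 0.12 for Smad2 and 0.037 to 0.12 for Smad4. The genotype difference of the ligand shares ran from -3.40 to -1.07 points for Tgfb1, -2.0004 to -0.906 for Tgfb2 and 2.76 to 4.37 for Tgfb3. The median log2 change of the 10 genes ran from -0.00066 (without pair 8) to 0.077. The marker ratio ran from 0.021 to 0.15 for the pan-epithelial, -0.27 to -0.077 for the secretory luminal, -0.23 to -0.049 for the macrophage, -0.10 to 0.013 for the basal, -0.56 to -0.039 for the adipocyte, -0.26 to -0.012 for the hormone-sensing luminal, -0.29 to 0.17 for the endothelial, -0.10 to 0.19 for the pericyte and -0.34 to 0.11 for the lymphocyte markers. The genes of the set past the unadjusted threshold numbered 0 to 2, the pathway genes 0 to 7 and all genes 381 (without pair 6) to 1366 (without pair 4, 1196 without pair 1). Without the replicate block that pairs the littermates, 182 genes and 0 pathway genes passed, and no call among the 10 genes changed. All genes past the threshold numbered 307, 1199 and 1238 with the fibroblast, basal and endothelial covariates, and pathway genes 0 with the fibroblast covariate and 2 without the trend. The WT level of Tgfb1 per kilobase was 784 with the longest transcript and 928 with the longest protein-coding one, against 400.1 with merged exons. The cause of these shifts was not tested. The precision with 7 pairs is that of the interval given for each gene. The lowest value of any of the 10 genes was 662 normalized counts, in Tgfb2.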
